A study of Mus musculus with 4 samples.

Results

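The 40 genes described here encode enzymes that add methyl groups to histone lysines or to cytosine in DNA, or take them off. They were chosen by name, and all 40 were found among the 25177 gene symbols of the authors' deposited table. Where a gene has several transcripts, the one with the highest mean level stands for it. They comprise 20 histone methyltransferase genes and their relatives, 14 histone demethylase genes, 3 TET dioxygenase genes and 3 DNA methyltransferase genes. The cells were NIH-3T3, an established line of mouse embryonic fibroblasts, with stably integrated H2B-mCherry, the rtTA3G transactivator and CDX2 behind the TRE3G promoter, which answers to doxycycline. CDX2 is a homeobox transcription factor of the intestine, the trophectoderm and the posterior axis. Of the 4 nuclear RNA libraries, 2 were made after 6 h of doxycycline (500 ng/ml) and 2 from the same line given solvent alone. One label writes that dose per microlitre instead. Both groups carry the transgene and were grown in puromycin, so an action of doxycycline itself cannot be told apart from that of CDX2. The labels do not say whether the line is 1 clone or whether the libraries came from separate cultures.

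Methylated lysines on histone tails are read by proteins that open, close or mark chromatin. Methylation of lysine 4 of histone H3 (H3K4) marks promoters and enhancers, that of H3K36 and H3K79 marks transcribed gene bodies, and that of H3K9 and H3K27 marks silent chromatin. SET domain enzymes and the unrelated DOT1L place these marks with S-adenosylmethionine as methyl donor. Amine oxidases of the LSD1 family and JmjC domain dioxygenases, which need iron and 2-oxoglutarate, remove them. DNMT enzymes methylate cytosine in CpG dinucleotides, and TET enzymes oxidise the methyl group on the way to its removal. In fibroblasts such enzymes are best known from reprogramming to other cell fates, where several of them act as barriers or aids.

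In the authors' deposited table, Cdx2 was 124-fold higher after induction (95% interval 109-fold to 140-fold), with 612 CPM in doxycycline-treated cells against 4.96 CPM in solvent-treated cells. The files hold 1 fold change and 1 mean level per transcript and no value per library, so group levels are worked out from those 2 values as geometric means in CPM, read counts scaled to library size. The effective depth was 45712476 counts per library as a geometric mean. A gene was tested where its mean was at least 10 counts per library, which 12355 genes reached, and it was called where the adjusted p of the authors' deposited table lay below 0.05. Of the tested genes 24.7% were called, 11.3% higher and 13.4% lower. The 12 fibroblast markers examined were all detected, at a mean of 5.64 CPM (Thy1) to 2086 CPM (Col1a1), with a summed level of 6379 CPM in doxycycline-treated and 7522 CPM in solvent-treated cells; 7 were called lower and 1 higher. Of 21 markers of epithelium, endothelium, leukocytes and muscle, 4 passed the floor, the highest of them Cdh5 at 3.86 CPM, and the summed levels of those 4 lists lay between 0.647 and 3.96 CPM with doxycycline and between 1.17 and 4.64 CPM with solvent. Of the 4 markers above the floor, Cdh1 was called lower, at 0.464 CPM with doxycycline against 1.43 CPM with solvent, and the other 3 were not called. Epcam, Krt8, Krt18, Cd3e and Myod1 had a mean of under 1 count per library. The epithelial marker Krt19 went the other way from Cdh1, but lay under the floor at a mean of 1.18 counts per library. It was at 0.128 CPM with doxycycline against 0.0105 CPM with solvent (adjusted p 2.07e-07 in the authors' deposited table).

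With doxycycline, 8 of the 40 enzyme genes were higher, 4 were lower and 28 were not called in the authors' deposited table. The rises were those of the H3K27 demethylase gene Kdm6b, the DNA dioxygenase gene Tet2, the H3K4 demethylase gene Kdm5b, the H3K4 methyltransferase genes Setd1b and Kmt2a, and the demethylase genes Kdm3a, Phf8 and Kdm4a. Kdm7a, Kmt2e, Ash1l and Setdb1 fell. All 40 passed the floor, with mean counts per library of 180 (Tet1) to 12472 (Kmt2d), so the floor removed no member. The share called, 30.0%, stands beside 24.7% of all genes tested, the share higher (20.0%) beside 11.3% and the share lower (10.0%) beside 13.4%. The members' median log2 fold change was 0.027, against -0.0011 over all genes tested. Only 3 members moved by at least 1.5-fold, which is 7.5% of them beside 6.49% of all genes tested. The test pools its error over transcripts, so the standard errors follow level (0.060 to 0.13 on the log2 scale for the members) and do not hold the spread of each gene's own replicates. The degrees of freedom leave at most 1 per row for 4 libraries, so the authors' model held a term beyond the 2 groups, and no source used here says what it was. The robust SD of t was 2.08 among the tested genes. With each error multiplied by it, 5 members were still called, namely Kdm6b, Tet2, Kdm5b and Setd1b higher and Kdm7a lower, beside 4.18% of all genes (1.38% higher, 2.81% lower), and the calls of the other 7 were lost. At an adjusted p below 0.01, 5 members were higher and 2 lower, beside 17.9% of all genes (7.7% higher, 10.2% lower). With the median of the ribosomal protein genes set to 0, 11 members were higher and 2 lower, beside 26.2% of all genes (15.5% higher, 10.7% lower), so the split between rises and falls over all genes depends on the scaling. Without the floor on low values the members' counts were 8 higher and 4 lower, beside 13.1% of all genes (5.95% higher, 7.13% lower).

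**Figure D1:**
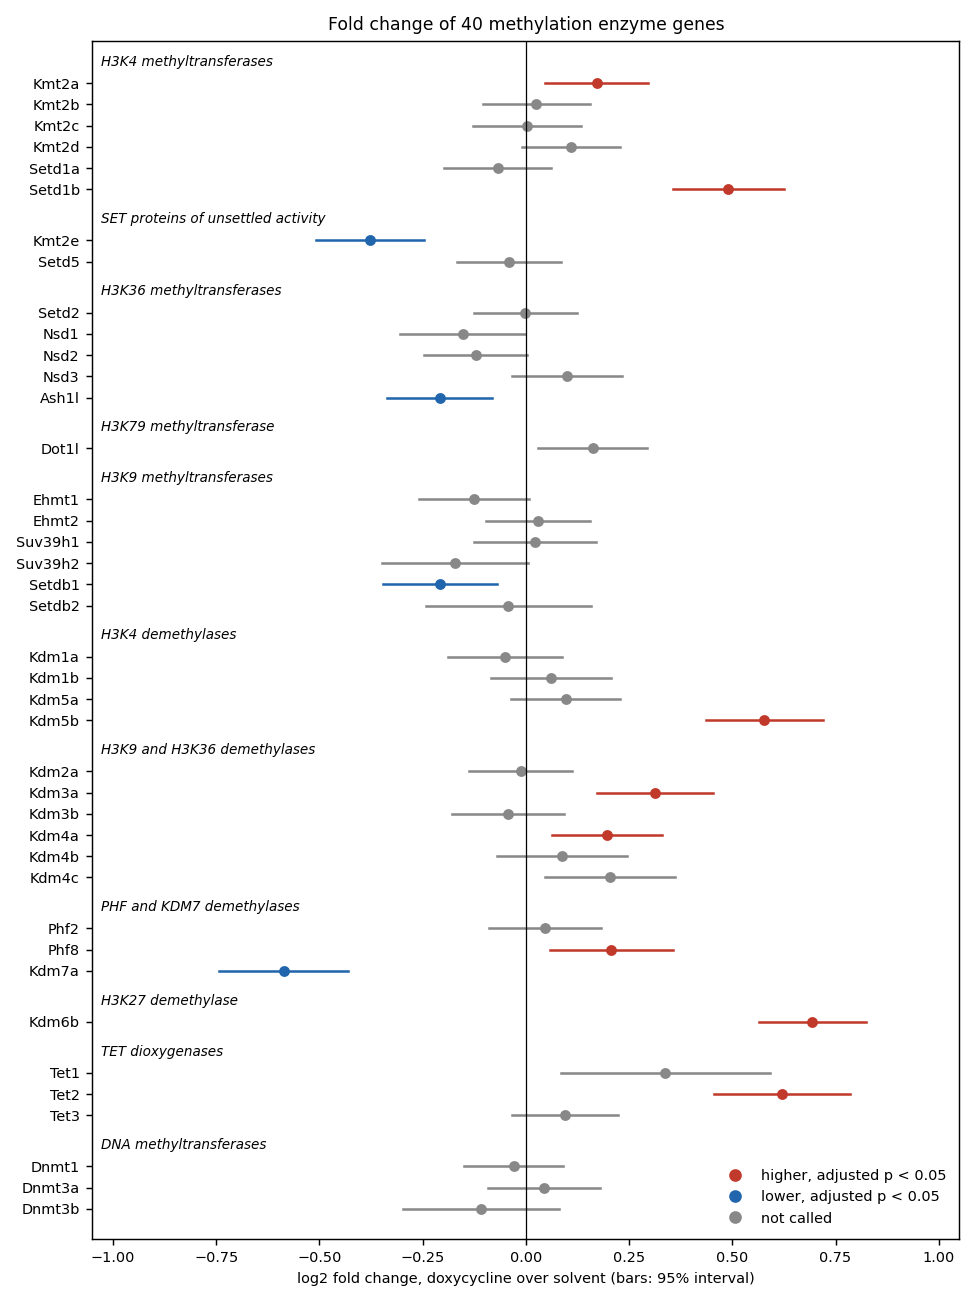
Log2 fold change of each of the 40 genes, doxycycline over solvent, ordered by the role of the enzyme, with points for the value of the authors' deposited table and bars for its 95% interval (horizontal axis in log2 units). Red genes were called higher, blue ones lower and grey ones not called. Kdm6b lies farthest to the right at 0.69 and Kdm7a farthest to the left at -0.59.

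Kdm6b showed the largest rise of the 40. It encodes JMJD3, which removes H3K27 methylation and is known as a gene that answers quickly to inflammatory stimuli in macrophages. Its level was 82.0 CPM in doxycycline-treated cells against 50.7 CPM in solvent-treated cells. The log2 fold change in the authors' deposited table was 0.69 ± 0.066 (± standard error), or 61.7% higher, with an adjusted p of 2.14e-23, and it ranked 225 among the 12355 tested genes by rise. The gene (NM_001017426) lies on mm10 chromosome 11, 69398518 to 69416194, in a span of 17.7 kb that is short beside the members' median of 69.5 kb.

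Of the 3 TET genes, Tet2 rose and the others were not called, so 33.3% were called beside 24.7% of all genes tested. Tet3 was the most abundant at 7.03 CPM per kilobase of exon with doxycycline and 6.58 with solvent, whereas Tet1 lay at 0.310 with doxycycline and 0.245 with solvent, the lowest level of all 40 genes. Tet2 (chromosome 3, 133463677 to 133544390) was the member of this family that rose, to 15.9 CPM with doxycycline against 10.4 CPM with solvent, and its log2 fold change in the authors' deposited table was 0.62 ± 0.084 (adjusted p 8.53e-12). Tet2 lacks the DNA-binding CXXC domain that its relatives Tet1 and Tet3 carry, and it is often mutated in human blood cancers. Tet3 stood at 0.094 ± 0.065 in the authors' deposited table and was not called. Tet1 stood at 0.34 ± 0.13 in the authors' deposited table with an adjusted p of 0.0577, and it passes (adjusted p 0.0354) when p-values are adjusted over the genes tested alone. Tet1 is also called higher with the median of the ribosomal protein genes set to 0. The rise of Tet2 exceeded that of Tet3 by 0.53 (95% interval 0.32 to 0.74), while the interval of Tet1 minus Tet2 (-0.59 to 0.019) held 0.

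None of the 3 DNA methyltransferase genes was called, beside 24.7% of all genes tested. Dnmt1, the maintenance enzyme, had the highest level of all 40 genes per length (45.3 CPM per kilobase with doxycycline, 46.2 with solvent), and its log2 fold change in the authors' deposited table was -0.030 ± 0.061, with a 95% interval of -0.15 to 0.090. The de novo enzyme genes Dnmt3a (0.043 ± 0.069) and Dnmt3b (-0.11 ± 0.097) had adjusted p-values of 0.873 and 0.648 in the authors' deposited table. Dnmt3a was at 45.3 CPM with doxycycline against 43.9 CPM with solvent, and Dnmt3b at 7.82 CPM against 8.43 CPM. The 95% interval of Dnmt3a ran from -0.092 to 0.18 and that of Dnmt3b from -0.30 to 0.081 on the log2 scale. Of the cofactor genes that recognise hemimethylated DNA for DNMT1, Uhrf1 stood at -0.070 ± 0.062 in the authors' deposited table and was not called.

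The H3K4 demethylases held 1 call among 4 genes (25%), beside 24.7% of all genes tested. Kdm5b, a JmjC enzyme that removes H3K4 trimethylation (chromosome 1, 134560178 to 134632878), was at 37.0 CPM in doxycycline-treated and 24.8 CPM in solvent-treated cells, and its log2 fold change in the authors' deposited table was 0.58 ± 0.073 (adjusted p 1.05e-13). Its relative Kdm5a, at 58.7 CPM against 54.9 CPM, stood at 0.096 ± 0.067 and was not called in the authors' deposited table. Per kilobase the pair had similar mean levels, 4.85 CPM for Kdm5b and 5.20 CPM for Kdm5a. The fold change of Kdm5b exceeded that of Kdm5a by 0.48 (95% interval 0.29 to 0.68). The flavin-dependent enzyme genes Kdm1a, which encodes LSD1, and Kdm1b stood at -0.051 ± 0.071 and 0.060 ± 0.074 in the authors' deposited table, both without a call.

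Among the 6 demethylase genes for H3K9 and H3K36, Kdm3a and Kdm4a rose, a share called of 33.3% beside 24.7% of all genes tested. Kdm3a, which encodes an H3K9 demethylase, was at 35.7 CPM with doxycycline against 28.7 CPM with solvent, a log2 fold change of 0.31 ± 0.072 in the authors' deposited table (adjusted p 1.99e-04). Its 4 transcripts gave log2 fold changes of 0.31 to 0.33 in the authors' deposited table and all were called. The close relative Kdm3b stood at -0.043 ± 0.070 in the authors' deposited table, and the difference between the pair was 0.36 (95% interval 0.16 to 0.55). Kdm4a, a demethylase of trimethylated H3K9 and H3K36, was at 54.7 CPM against 47.7 CPM, with a log2 fold change of 0.20 ± 0.068 (adjusted p 0.0281) in the authors' deposited table. Its shorter transcript gave 0.18 ± 0.070 and an adjusted p of 0.0614 there. Kdm4c had the same size of difference, 0.20 ± 0.081, on fewer reads and was not called (adjusted p 0.0714) in the authors' deposited table, and it passes (adjusted p 0.0440) when p-values are adjusted over the genes tested alone. Kdm4c is also called higher with the median of the ribosomal protein genes set to 0. Kdm4b (0.087 ± 0.080) and Kdm2a (-0.013 ± 0.064), a CXXC protein that sits at CpG islands, were not called in the authors' deposited table.

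The 3 related genes Kdm7a, Phf8 and Phf2, whose products join a PHD finger that reads H3K4 methylation to a JmjC domain, held 1 rise and 1 fall. That is 66.7% called, beside 24.7% of all genes tested. Kdm7a (chromosome 6, 39136620 to 39206773) was at 12.5 CPM in doxycycline-treated against 18.8 CPM in solvent-treated cells and had the largest fall of the 40, -0.59 ± 0.080 on the log2 scale (adjusted p 9.21e-12) in the authors' deposited table. Phf8, on the X chromosome, was at 24.8 CPM with doxycycline against 21.5 CPM with solvent, with 0.21 ± 0.076 (adjusted p 0.0438) in the authors' deposited table. Phf2 stood at 0.047 ± 0.069 and was not called in the authors' deposited table. Kdm7a differed from Phf8 by -0.79 (95% interval -1.01 to -0.58) and from Phf2 by -0.63 (-0.84 to -0.43), while the interval of Phf2 minus Phf8 (-0.36 to 0.041) held 0. Phf8 misses the threshold when fold changes are freed of their trend with level (adjusted p 0.0798) and in its shorter transcript (adjusted p 0.233). The span of Kdm7a overlaps the opposite-strand transcript 4930599N23Rik over 11693 bases. That transcript, at 0.590 CPM, fell by 0.89 on the log2 scale in the authors' deposited table, and since no source used here gives the strand setting of the counting, its part in the value of Kdm7a was not tested.

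Of the sequences before the start sites, 4 are shown because their genes have the largest changes among the called members with a RefSeq promoter entry at the start of their row (GRCm38.p6, the build named mm10). Each line gives the 250 bases before the annotated start, 5′ to 3′ on the gene's strand, with CpG dinucleotides, the substrate of the DNMT and TET enzymes, in capitals.
Tet2 (chr3:133544391-133544640, minus strand): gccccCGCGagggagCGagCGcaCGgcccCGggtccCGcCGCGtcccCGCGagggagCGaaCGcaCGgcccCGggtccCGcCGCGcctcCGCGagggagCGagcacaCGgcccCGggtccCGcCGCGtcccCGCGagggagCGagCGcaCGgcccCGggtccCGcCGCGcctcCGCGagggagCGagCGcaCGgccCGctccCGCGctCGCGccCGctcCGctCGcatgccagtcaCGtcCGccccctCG
Kdm5b (chr1:134559928-134560177, plus strand): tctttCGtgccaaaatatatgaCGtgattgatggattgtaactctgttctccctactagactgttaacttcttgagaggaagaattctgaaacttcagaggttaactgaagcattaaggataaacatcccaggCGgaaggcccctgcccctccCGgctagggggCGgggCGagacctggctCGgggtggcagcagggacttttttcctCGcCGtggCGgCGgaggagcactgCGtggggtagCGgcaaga
Kdm3a (chr6:71632687-71632936, minus strand): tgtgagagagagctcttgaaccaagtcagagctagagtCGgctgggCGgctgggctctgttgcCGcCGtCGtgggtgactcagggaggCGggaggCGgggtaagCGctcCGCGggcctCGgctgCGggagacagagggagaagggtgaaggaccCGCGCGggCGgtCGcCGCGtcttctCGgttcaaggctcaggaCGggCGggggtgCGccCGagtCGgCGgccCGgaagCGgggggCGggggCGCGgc
Kdm7a (chr6:39206774-39207023, minus strand): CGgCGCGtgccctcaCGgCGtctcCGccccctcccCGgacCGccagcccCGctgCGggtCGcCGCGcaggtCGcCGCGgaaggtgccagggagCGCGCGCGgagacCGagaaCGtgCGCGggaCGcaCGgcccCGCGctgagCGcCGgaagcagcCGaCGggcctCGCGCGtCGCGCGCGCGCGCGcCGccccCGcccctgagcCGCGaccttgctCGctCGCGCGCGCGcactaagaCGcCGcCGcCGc
The stretch before Kdm7a, which fell, holds 56 CpG dinucleotides and that before Tet2, which rose, holds 51. Those before Kdm3a and Kdm5b, which both rose, hold 31 and 13. CpG-rich and CpG-poorer starts thus both occur among the genes that rose.

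Over the 300-base windows around the start, 250 before it and 50 after it, 26 of the 40 members had an entry at the start of their row. Of these, 25 had a GC content of at least 50% and a ratio of observed to expected CpG of at least 0.6, which is 96.2% of them, beside 72.1% of 9332 tested genes with such an entry. The 1 exception was Dnmt1, with a ratio of 0.50. The members' median was 31.5 CpG dinucleotides per window, against 21.5 for the tested genes. The letters TTTATG or TTTATTG, which occur in sites bound by CDX proteins, were searched on both strands; the shorter is not contained in the longer, so the searches do not overlap. Either was found in 2 of the 26 windows (7.69%), those of Setdb1, with both, and Suv39h1, with TTTATG, beside 8.32% of the tested genes' windows. For the 4 genes shown, the windows at the start of their row hold no such letters, which says only that these short windows lack them. A window at another annotated start of Kdm3a, chr6:71609090-71609389, holds TTTATG 2 times. So does, 1 time, a window at another start of Kdm4c, which was not called (chr4:74242247-74242546). The members' remaining windows at other starts hold neither set of letters. Over all 32851 promoter windows, 11.9% hold TTTATG.

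The 6 H3K4 methyltransferase genes held 2 rises and 0 falls, so 33.3% were called beside 24.7% of all genes tested. Setd1b, a catalytic subunit of the SET1 complex that deposits H3K4 trimethylation (chromosome 5, 123142193 to 123168630), was at 56.1 CPM in doxycycline-treated against 39.9 CPM in solvent-treated cells, with a log2 fold change of 0.49 ± 0.068 (adjusted p 3.95e-11) in the authors' deposited table. Setd1a, the other catalytic subunit of that kind, was at 64.5 CPM against 67.6 CPM and stood at -0.069 ± 0.066 in the authors' deposited table. Their fold changes differed by 0.56 (95% interval 0.37 to 0.75). Per kilobase, the level of Setd1b was 0.479 times that of Setd1a as a mean over the libraries.

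Kmt2a, which encodes MLL1, a regulator of Hox genes, was at 109 CPM with doxycycline against 96.9 CPM with solvent, and its rise of 0.17 ± 0.064 passed narrowly (adjusted p 0.0464) in the authors' deposited table. Its closest relative Kmt2b stood at 0.025 ± 0.066 in the authors' deposited table, and the difference between the pair, 0.15, had a 95% interval of -0.033 to 0.33. The genes of the enhancer monomethylases, Kmt2c (0.0024 ± 0.067) and Kmt2d (0.11 ± 0.060), were not called in the authors' deposited table. Kmt2d, at 283 CPM with doxycycline and 263 CPM with solvent, had the highest read level of the 40, and it is called higher (adjusted p 0.00742) once the trend of fold change with level is taken off.

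Kmt2e, which encodes a SET and PHD protein for which no lysine methyltransferase activity is established, fell. It was at 52.9 CPM in doxycycline-treated against 68.8 CPM in solvent-treated cells, with a log2 fold change of -0.38 ± 0.066 (adjusted p 3.42e-07) in the authors' deposited table. Its 3' end overlaps that of Srpk2 over 878 bases, and Srpk2 stood at -0.12 in the authors' deposited table without a call. The related gene Setd5 stood at -0.040 ± 0.064 in the authors' deposited table, and the pair differed by -0.34 (95% interval -0.52 to -0.16).

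Of the 5 H3K36 methyltransferase genes, Ash1l fell and 4 were not called, a share called of 20% beside 24.7% of all genes tested. Ash1l, a trithorax group gene, was at 80.4 CPM with doxycycline against 92.9 CPM with solvent, with a log2 fold change of -0.21 ± 0.065 (adjusted p 0.0118) in the authors' deposited table. That call is lost when the trend with level is taken off (adjusted p 0.0810) and when the median of the ribosomal protein genes is set to 0 (adjusted p 0.0618). Setd2, the enzyme of H3K36 trimethylation, had 112 CPM in each group and a log2 fold change of -0.0015 ± 0.064 in the authors' deposited table. The NSD genes, whose products place dimethylated H3K36, stood at -0.15 ± 0.077 (Nsd1), -0.12 ± 0.063 (Nsd2) and 0.099 ± 0.068 (Nsd3) in the authors' deposited table. Nsd3 lay above Nsd1 and above Nsd2, since Nsd1 minus Nsd3 was -0.25 (95% interval -0.45 to -0.050) and Nsd2 minus Nsd3 was -0.22 (-0.40 to -0.039). Nsd2 was the most abundant of the trio by length, at 19.9 CPM per kilobase as a mean, against 4.72 for Nsd3 and 1.54 for Nsd1. Dot1l, the gene of the H3K79 methyltransferase, was at 57.9 CPM with doxycycline against 51.8 CPM with solvent, and the authors' deposited table gives it 0.16 ± 0.067 with an adjusted p of 0.0910; it is called higher with the ribosomal protein genes' median set to 0 (adjusted p 0.0164) and with the trend taken off (adjusted p 0.0324).

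The 6 H3K9 methyltransferase genes held 1 fall and 0 rises, so 16.7% were called beside 24.7% of all genes tested. Setdb1, which silences retroelements together with TRIM28, was at 32.0 CPM in doxycycline-treated against 36.9 CPM in solvent-treated cells, with a log2 fold change of -0.21 ± 0.071 (adjusted p 0.0256) in the authors' deposited table. With the median of the ribosomal protein genes set to 0 the call is lost (adjusted p 0.0996). Its 3 transcripts differed by less than 0.02 in the authors' deposited table, and all were called. Setdb2 stood at -0.042 ± 0.10 in the authors' deposited table, and the row shares its whole span with the transcript Gm45935 of the same strand, so its reads are uncertain. The heterodimer partners Ehmt1, which encodes GLP (-0.13 ± 0.068), and Ehmt2, which encodes G9a (0.029 ± 0.065), and the pericentromeric enzyme genes Suv39h1 (0.023 ± 0.075) and Suv39h2 (-0.17 ± 0.091) were not called in the authors' deposited table. Suv39h2 overlaps the span of Dclre1c over 5302 bases.

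**Figure D2:**
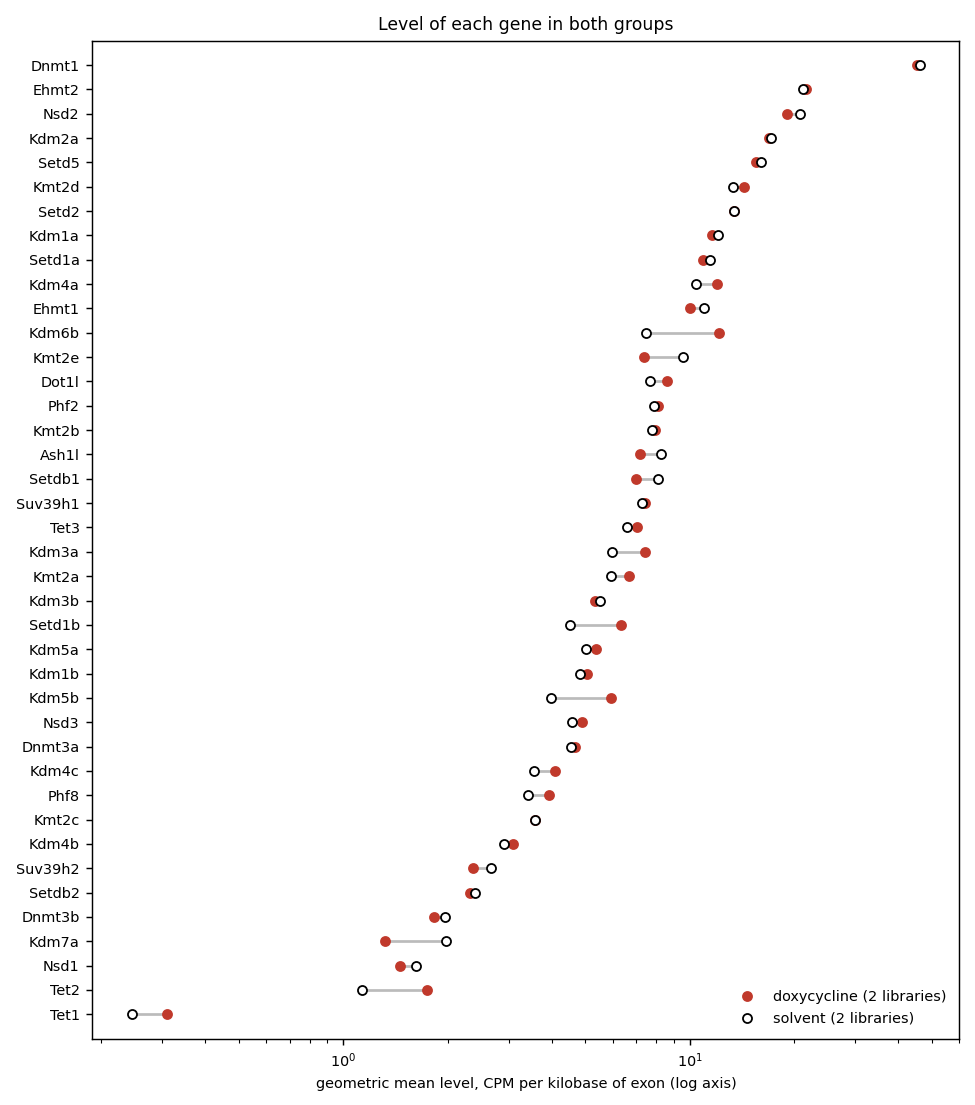
Level of each gene in CPM per kilobase of exon (horizontal log axis), as the geometric mean of the 2 doxycycline libraries (red) and of the 2 solvent libraries (open), with genes ordered by their mean. The mean levels run from 0.276 for Tet1 to 45.7 for Dnmt1, and the widest gaps between the paired points belong to Kdm6b, Tet2, Kdm7a and Kdm5b.

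Levels per length spread far more widely across the 40 genes than any of them differed between the groups, where the largest fold was 1.62 (Kdm6b). As a mean over the libraries, Dnmt1 (45.7 CPM per kilobase), Ehmt2 (21.5), Nsd2 (19.9) and Kdm2a (17.0) were highest and Kdm7a (1.61), Nsd1 (1.54), Tet2 and Tet1 (0.276) lowest. The members' median of 6.73 CPM per kilobase lay close to the 5.86 of all genes tested. Their transcripts were long, with a median exon length of 6.76 kb against 2.89 kb and a median span of 69.5 kb against 20.5 kb for all genes tested. In reads, the members' median level of 46.3 CPM was above the 16.7 CPM of all genes tested, and their median standard error of 0.068 was below that of all genes tested, 0.080. Smaller errors let smaller changes pass the threshold.

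**Figure D3:**
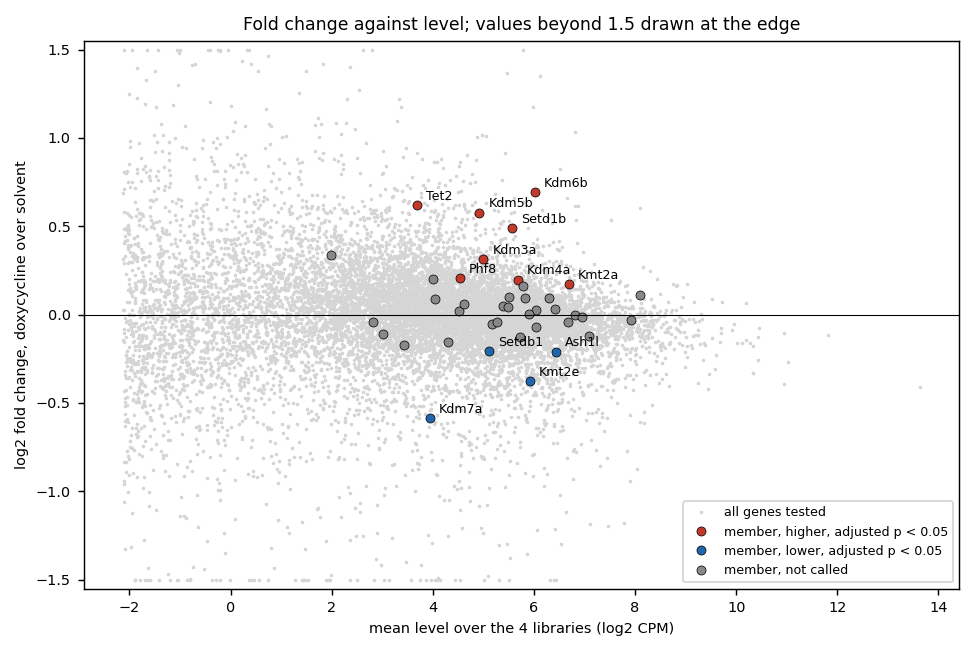
Log2 fold change, doxycycline over solvent, against the mean log2 CPM over the 4 libraries for all 12355 genes tested (light grey) and for the 40 members, red where called higher, blue where called lower and dark grey where not called. The members lie between a mean log2 CPM of 1.98 (Tet1) and 8.09 (Kmt2d), and all have fold changes within the range -0.59 to 0.69.

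Some related enzymes differed in response. Of 23 pairs within families, 9 had a difference of log2 fold changes whose 95% interval excluded 0, and the other 14 intervals held 0. Some genes stand in more than 1 pair, the intervals are not adjusted for their number, and they rest on the pooled errors. With errors widened by 2.08, 5 of the 9 intervals still excluded 0, and those of Kmt2e with Setd5, Nsd1 and Nsd2 with Nsd3, and Kdm3a with Kdm3b did not. Among the 9 pairs, Kdm7a with Phf2, Setd1b with Setd1a, and Tet2 with Tet3 each had 1 called and 1 uncalled gene. So did Kdm5b with Kdm5a, Kdm3a with Kdm3b, and Kmt2e with Setd5. Over all 9 pairs the differences ran from -0.79 (Kdm7a minus Phf8) to 0.56 (Setd1b minus Setd1a). The smallest in size was -0.22 (Nsd2 minus Nsd3). Where the interval held 0, it still allowed sizeable gaps, as for Suv39h1 minus Suv39h2 (-0.037 to 0.43), Dnmt3a minus Dnmt3b (-0.081 to 0.38) and Kdm4a minus Kdm4c (-0.21 to 0.20).

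**Figure D4:**
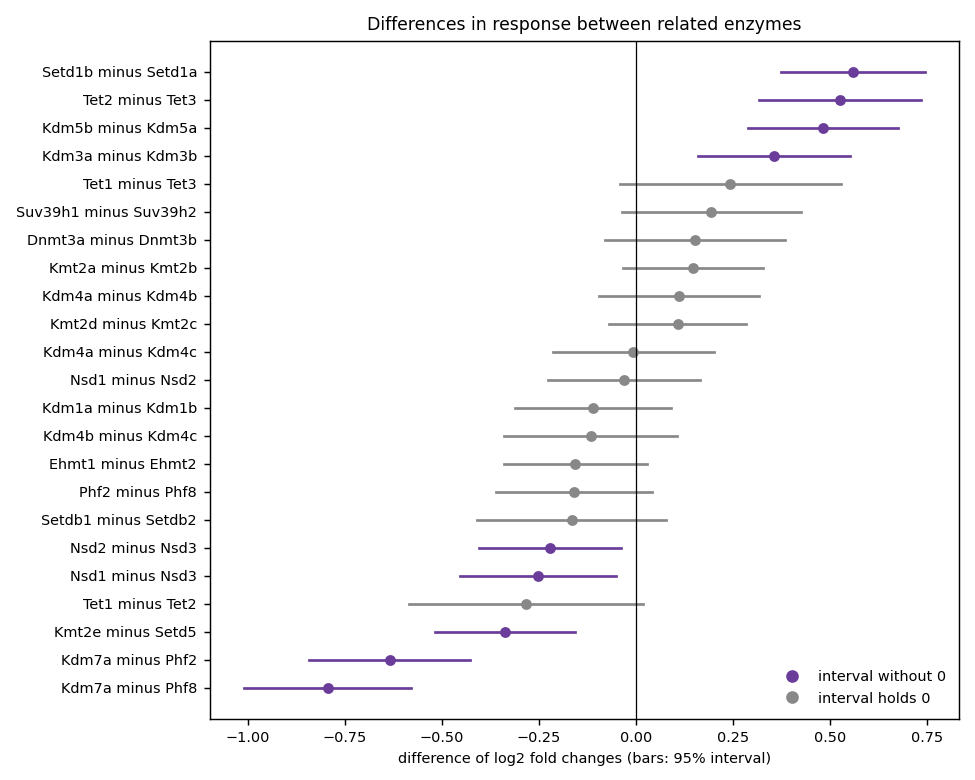
Difference between the log2 fold changes of 2 related genes (horizontal axis, log2 units) for the 23 pairs, with bars for the 95% interval. Purple pairs, 9 in number, have intervals without 0, from Setd1b minus Setd1a at 0.56 down to Kdm7a minus Phf8 at -0.79.

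The table holds 86 transcripts of the 40 genes, and 21 genes have more than 1. Isoforms of a gene overlap and can share exons and reads to differing degrees, so they are no independent evidence. In 18 of those 21 genes the log2 fold changes of the isoforms lay within 0.02 of each other in the authors' deposited table, and the widest range was 0.067 (Nsd3). In 3 genes isoforms fell on both sides of the threshold. These were Kdm4a, Phf8 and Nsd2, whose transcript NM_001177884, which ends earlier than the others, had -0.18 ± 0.066 and an adjusted p of 0.0397 in the authors' deposited table, while the other 2 transcripts stood at -0.12 and were not called.

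Beyond the 40 genes, 9 lists of enzymes and partners that work with them were counted, with 132 tested genes in all, of which 17 were called higher and 18 lower, or 26.5% beside 24.7% of all genes tested. With errors widened by 2.08, 3 of these genes were higher and 1 lower, beside 1.38% higher and 2.81% lower of all genes tested. With the median of the ribosomal protein genes set to 0, 24 were higher and 13 lower, beside 15.5% and 10.7%. LSD1 and CoREST partners had 6 rises (46.2%) and 2 falls (15.4%) among 13 tested, beside 11.3% higher and 13.4% lower of all genes tested. Their median log2 fold change was 0.21 beside -0.0011 over all genes tested. Gse1, a subunit of LSD1 complexes, was at 23.0 CPM with doxycycline against 12.6 CPM with solvent and rose, at 0.86 ± 0.080 with an adjusted p of 3.27e-25 in the authors' deposited table. Of the CoREST scaffold genes, Rcor1 rose (0.28 ± 0.069), Rcor2 fell (-0.29 ± 0.071) and Rcor3 was not called (0.10 ± 0.097) in the authors' deposited table, and Phf21a, which reads unmethylated H3K4, rose (0.30 ± 0.085). Kdm1a itself was not called.

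Arginine methyltransferase genes had 1 rise and 5 falls among 9 tested, beside 11.3% higher and 13.4% lower of all genes tested, with a median log2 fold change of -0.20. Prmt6 fell (-0.65 ± 0.086, adjusted p 1.95e-12) to 9.61 CPM with doxycycline against 15.1 CPM with solvent, and Prmt2 rose (0.58 ± 0.081, adjusted p 2.08e-11) in the authors' deposited table. Wdr77, the partner of PRMT5 in the methylosome, fell (-0.35 ± 0.067), as did Prmt3 (-0.26 ± 0.074) in the authors' deposited table. The cosubstrate enzymes had 0 rises and 5 falls among 15 tested, beside the same shares of all genes, with a median log2 fold change of -0.070. Mat2a, which makes S-adenosylmethionine, was at 104 CPM in doxycycline-treated against 139 CPM in solvent-treated cells and fell (-0.41 ± 0.063, adjusted p 2.65e-09) in the authors' deposited table. Mtap (-0.24 ± 0.063) and Ahcyl1 (-0.19 ± 0.064) fell as well in the authors' deposited table.

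DNA methylation readers and genes of demethylation and repair had 5 rises and 1 fall among 17 tested. That is 35.3% called, beside 24.7% of all genes tested (11.3% higher, 13.4% lower). The list's median log2 fold change was 0.091. Zbtb4 (0.43 ± 0.094), Mbd4 (0.38 ± 0.11), a glycosylase for mismatches at CpG, and Mbd6 (0.25 ± 0.073) rose in the authors' deposited table, whereas Ogt (-0.44 ± 0.066), the glycosyltransferase that TET2 and TET3 bind, fell. DOT1L and elongation partners had 2 rises and 1 fall among 13 tested (23.1% called), with a median of 0.011. Bcor, a Polycomb corepressor that binds MLLT3, rose (0.68 ± 0.071, adjusted p 8.85e-20), as did Aff1 (0.39 ± 0.067), and Mllt3 itself fell (-0.23 ± 0.071) in the authors' deposited table.

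Subunits and partners of the various H3K4 methyltransferase complexes had 1 rise and 0 falls among 16 tested. That is 6.25% called, beside 24.7% of all genes tested (11.3% higher, 13.4% lower). The rise was that of Hcfc2 (0.24 ± 0.079, adjusted p 0.0170) in the authors' deposited table. H3K9 methylation partners had 0 rises and 1 fall among 16 (6.25% called), with a median log2 fold change of -0.089. The fall was that of the HP1 gene Cbx5 (-0.24 ± 0.060, adjusted p 0.00101) in the authors' deposited table. Other lysine methyltransferase genes had 1 rise and 2 falls among 21 (14.3% called). Prdm2 (0.37 ± 0.070) was higher and Smyd5 (-0.39 ± 0.069) among the lower in the authors' deposited table. Other demethylase genes had 1 rise and 1 fall among 12 (16.7% called). The rise was that of the Polycomb cofactor Jarid2, which has lost demethylase activity (0.43 ± 0.072). The fall was that of Riox1 (-0.36 ± 0.086) in the authors' deposited table. The H3K27 methyltransferase genes Ezh1 (0.12 ± 0.088) and Ezh2 (0.0075 ± 0.069) were not called in the authors' deposited table.

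**Figure D5:**
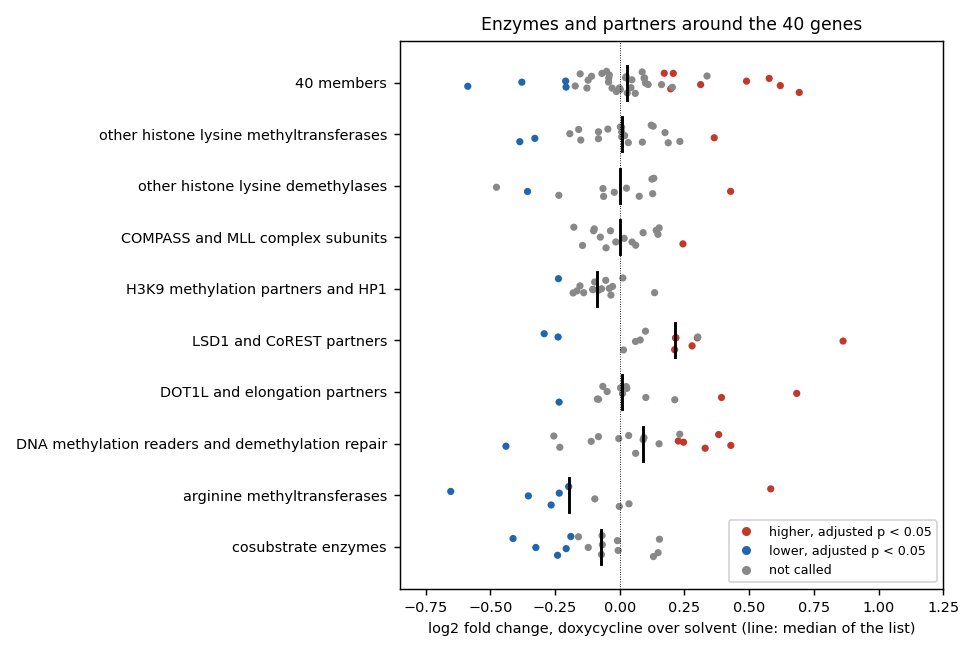
Log2 fold change, doxycycline over solvent (horizontal axis), of the 40 members and of the tested genes in 9 lists around them, with 1 point per gene, red where called higher, blue where called lower and grey where not called, and a black line at each list's median. The median is 0.21 for LSD1 and CoREST partners and -0.20 for arginine methyltransferases.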

How the data were processed

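Nuclear RNA of 4 directional libraries, 2 treated with doxycycline and 2 with solvent, was compared, with groups taken from the sample titles. Tools listed in the submitters' processing notes, without their roles, are edgeR, limma, HOMER 4.10, Picard, STAR 2.7.1a and SAMtools 1.10, and the build listed is mm10. The authors' deposited table holds 40739 RefSeq transcripts with, per the file headers, the columns of limma: a log2 fold change, a mean log2 level, p-values raw and adjusted, the t score and a log-odds score (unused), and further columns that place each transcript and give its exon length. It has no values per library. A t distribution with 44446 degrees of freedom gives back its p-values, and over 9441 genes a gene's level and fold explained 99.2% of the variation in its log standard error, so errors were pooled over transcripts.

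The planned count tests, their alternatives, the replicate block and leaving out single libraries need values per library and were not run; the deposited test was used instead. Recentred, detrended or widened values were adjusted over the 40739 rows given; done on the deposited p-values this calls the same number of members (12) and 3087 genes in place of 3047, since the adjusted p comes out at 0.941 times the deposited one (median). The direction of the fold is that of Cdx2, higher with doxycycline. Standard errors are log2 fold changes divided by t, and 95% intervals assume normal errors. Depth was worked out from the level of transcripts without reads (0.5 counts added per library). Because nothing says that libraries came from separate cultures, the spread behind the p-values may be technical. The members and lists were chosen with earlier results of these data known. The rule for named genes takes all members, up to 4 called genes of each list by smallest p, Cdx2, and further genes named after their values were seen (Uhrf1, Ezh1, Ezh2, the overlapping and neighbouring genes, and the cell markers). Of 148 listed partners, 147 were matched by symbol; Dnmt3c was not analysed here. Some called genes of the lists are counted but not reported by name here. Promoter sequences are those of RefSeq, build GRCm38.p6, in which 28 members had an entry. Scripts ran on Python with pandas 2.3.3, statsmodels 0.14.6 and scipy 1.17.1, and the recalculated calls were tested on simulated data. The simulated noise was drawn from the deposited standard errors. It therefore checks the calculation only and cannot show whether those errors are wide enough for these data.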

Additional observations from a re-analysis of the deposited data

How the results depend on the processing

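Under 10 other settings, each changing 1 choice, 5 members kept their call in all (Kdm6b, Tet2, Kdm5b and Setd1b higher, Kdm7a lower), and no called member changed sign in any. The count of called members (8 higher and 4 lower, 12 in all) was 4 and 1, 5 in all, with standard errors widened by 2.08, and 5 and 2, 7 in all, at an adjusted p under 0.01; 2 were lower with the median of 82 ribosomal protein genes (-0.044) set to 0. The partner lists (17 higher and 18 lower, 35 in all) held 3 and 1, 4 in all, with widened errors, and 11 higher at an adjusted p under 0.01. Of all genes tested, 4.18% were called with widened errors and 17.9% at an adjusted p under 0.01 (7.7% higher). With the ribosomal scaling 10.7% were lower. Of 23 pairs, 9 intervals excluded 0 and 5 did with widened errors, a setting chosen after seeing the data. The causes were not tested. Uncalled members near 0 turned positive with the ribosomal scaling (Setd5 0.0035, Setd2 0.042, Setdb2 0.0015, Kdm2a 0.031, Kdm3b 0.00036, Dnmt1 0.014) and with the trend of fold change on level taken off (Setd5 0.018, Setd2 0.061, Kdm2a 0.054, Dnmt1 0.060). No floor, a floor of 50 counts, another transcript, the trend taken off, the median of all genes set to 0 and adjustment over the genes tested gave 10 to 14 called members, and counting any transcript, an alternative chosen after seeing the data, gave 13. No paired analysis was possible because the table holds no values per library, and whether the authors' model held a replicate term is not known. Leaving out single libraries, the count models and their normalizations were not run for the same reason. The smallest called member stood at 0.17 (Kmt2a), while Tet1, at 0.34 on the fewest reads, was not called.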

Other observations

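The nearest tested genes on either side of each called member, by the midpoints of their rows, were read as a description of the surroundings. Of 24 such neighbours, 8 were called in the authors' deposited table, which is 33.3% beside 24.7% of all genes tested, 6 in the direction of the member and 2 in the other. Rhof, 9.56 kb from Setd1b, was higher by 1.42 ± 0.25 on the log2 scale at a mean of 0.610 CPM in the authors' deposited table. The noncoding 5031425E22Rik lies on the strand opposite to Kmt2e, with 0.111 kb between their annotated starts. It fell (-0.49 ± 0.098) as Kmt2e did in the authors' deposited table. Tmem88, 0.284 kb from Kdm6b, stood at 0.036 ± 0.097 and was not called in the authors' deposited table, beside 0.69 for Kdm6b, whose neighbour on the other side, Efnb3, 138 kb away at a mean of 0.287 CPM, was called higher (0.97 ± 0.32). The neighbours of Kdm5b, Rabif (0.078 ± 0.092) and Ppp1r12b (0.080 ± 0.097), and of Kdm4a, St3gal3 (0.044 ± 0.082) and Ptprf (0.056 ± 0.067), were not called in the authors' deposited table either. Reads shared between overlapping or abutting rows were not tested.

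The 40 genes lie on 19 chromosomes, with 5 on chromosome 6 and 4 on chromosome 5. Those on chromosome 6 include Kdm7a, which fell, Kdm3a, which rose, and Setd5, Kdm5a and Tet3, which were not called in the authors' deposited table.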
